A study of Mus musculus with 6 samples.

Results

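The genes described here are 9 mouse genes that detect or dispose of DNA in the cytosol, or belong to the same family as such detectors. They are the p200 family genes Ifi202b, Ifi203, Ifi204, Ifi205, Mndal and Aim2, the nucleic acid sensor gene Zbp1, Tmem173 (written Sting1 in newer annotations), which encodes STING, and the exonuclease gene Trex1. They were found by symbol in the platform annotation, and 17 probe sets out of 45101 carried at least 1 of the 9 symbols. All 9 genes had a probe set. Of the 17 probe sets, 10 named 1 gene and 7 named several, so that some signals cannot be given to a single p200 gene.

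Bone marrow cells of healthy C57BL/6 mice were transfected with a mimic of miR-142-3p or with a control oligonucleotide, named CTRL oligo in the labels, at 100 nM. GM-CSF and IL-6 were added after 5 h and kept for 4 days, so both groups were grown as myeloid-derived suppressor cells, a mixed population of immature myeloid cells. The mimic group and the control group each had 3 Affymetrix MOE430 2.0 arrays, and the only difference the labels give is the oligonucleotide. The labels do not say whether the arrays of a group came from separate animals or cultures, so the p-values reflect the spread between these samples alone, and that spread may be technical. The mature microRNA itself was not analysed here.

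DNA in the cytosol is a sign of infection or of cell damage, and myeloid cells carry several detectors for it. Proteins of the p200 family bind DNA through a HIN domain, and most carry a pyrin domain that recruits partner proteins. AIM2 uses it to assemble an inflammasome with the adaptor ASC and caspase-1, whereas STING, at the endoplasmic reticulum, answers the cyclic dinucleotide made by cGAS and signals through TBK1 and IRF3 to interferon genes. TREX1 removes cytosolic DNA and so restrains that pathway, and ZBP1 binds nucleic acid in the Z form and can start necroptosis. Many genes of this group are themselves induced by interferon.

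Mouse miR-142-3p is shown first because its mimic is the agent that separates the groups. It is the 3′ arm of the Mir142 hairpin (GRCm38.p6, plus strand, chr11:87756903-87756925), it has 23 bases, and the capitals mark its seed, bases 2 to 8.
mmu-miR-142a-3p: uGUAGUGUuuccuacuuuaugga

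The p200 genes lie side by side on chromosome 1, in the RefSeq order Aim2, Ifi206, Ifi214, Ifi213, Ifi209, Ifi208, Ifi207, Ifi204, Mndal, Ifi211, Ifi203, Ifi202b and Ifi205. Promoter windows of 300 bases that span the start site were found in the RefSeq table for 6 of the 9 genes (Aim2, Ifi202b, Ifi203, Ifi205, Mndal and Trex1). They were searched on both strands for the core of the interferon-stimulated response element, spelled as 2 copies of GAAA with any 2 bases between them, and for TTCNNNGAA, the gamma-activated site, which reads the same on both strands. The 2 motifs did not overlap in any of these windows. The interferon element was present for Mndal, Ifi203 and Ifi205, or 3 of the 6, and for 6 of 7 p200 neighbours, whereas 3.99% of all 27025 genes with a window had it. TTCNNNGAA was present for Ifi202b among the 6 and for 9.55% of all genes. The neighbour without the interferon element was Ifi209. Whether the element has a part in the differences described below was not tested. A match is a description of these letters and not evidence of binding.

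The stretch around this motif is shown for members and neighbours because it lies near the start sites of members and neighbours measured below. Each stretch has 60 bases of the minus strand of GRCm38.p6, read along the gene, with the motif in capitals. The coordinates are chr1:173880174-173880233 for Mndal, chr1:173942478-173942537 for Ifi203, chr1:174031840-174031899 for Ifi205, chr1:173913034-173913093 for Ifi211 and chr1:173741801-173741860 for Ifi207.
Mndal: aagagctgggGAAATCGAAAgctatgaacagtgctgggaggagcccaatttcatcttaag
Ifi203: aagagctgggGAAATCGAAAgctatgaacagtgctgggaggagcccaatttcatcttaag
Ifi205: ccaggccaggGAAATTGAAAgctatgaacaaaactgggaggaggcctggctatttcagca
Ifi211: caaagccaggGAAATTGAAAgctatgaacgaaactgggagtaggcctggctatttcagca
Ifi207: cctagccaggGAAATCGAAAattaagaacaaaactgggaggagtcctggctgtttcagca

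The Mndal and Ifi203 stretches were identical at 60 of 60 bases, and those of Ifi205 and Ifi211 at 56 of 60. Mndal and Ifi205 shared 37 of 60 bases in this ungapped comparison. Relative to the start site, the motif began at base -36 in Mndal, -35 in Ifi203 and -134 in Ifi205. Mndal and Ifi203 each had 2 windows in the table, and the stretch comes from 1 of them. The whole windows of Ifi205 (chr1:174031706-174032005, minus strand), which holds the motif, and of Ifi202b (chr1:173982795-173983094, minus strand), which holds the other motif, are given whole. Capitals mark the 2 matches to the interferon element in Ifi205, the second of them on the opposite strand, and the 1 match to TTCNNNGAA in Ifi202b.
Ifi205 window: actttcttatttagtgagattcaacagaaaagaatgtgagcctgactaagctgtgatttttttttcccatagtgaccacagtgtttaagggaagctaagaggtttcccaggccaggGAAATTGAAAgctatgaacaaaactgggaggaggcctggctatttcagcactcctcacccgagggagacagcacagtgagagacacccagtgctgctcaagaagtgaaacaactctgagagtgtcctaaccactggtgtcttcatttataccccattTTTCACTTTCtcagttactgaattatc
Ifi202b window: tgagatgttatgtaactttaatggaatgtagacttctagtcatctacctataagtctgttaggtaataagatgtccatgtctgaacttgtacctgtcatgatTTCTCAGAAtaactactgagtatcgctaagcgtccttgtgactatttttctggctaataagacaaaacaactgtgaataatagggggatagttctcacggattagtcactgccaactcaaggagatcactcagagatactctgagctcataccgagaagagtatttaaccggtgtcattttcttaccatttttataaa

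Levels are the deposited log2 values, 1 per probe set and array, and array numbers are those of the sample titles. They ran from -0.39 to 12.29 over the 6 arrays, with column medians of 0.84 to 0.92, and between 52.2% and 53.3% of the values of an array lay below 1. Correlations between arrays across probe sets were 0.982 to 0.996, and no 2 arrays were identical. Myeloid markers were present: Ptprc (CD45) averaged 8.64 in control against 8.71 in mimic arrays, Lyz2 11.40 and 10.87, and Itgam (CD11b) 6.60 and 5.41. The number of arrays limits the precision of every value below.

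The comparison asked which of these transcripts differ after addition of the miR-142-3p mimic. With the mimic, the p200 probe sets for Mndal, for Ifi205 with Ifi211, and for the sequence shared by Mndal, Ifi211, Ifi205 and Ifi204 rose about 2.20-fold to 2.70-fold, and a probe set of Zbp1 rose 1.90-fold. No member probe set passed the threshold downward, although both Tmem173 sets were lower on every mimic array than on any control array. In the limma fit of all 45037 probe sets other than Affymetrix controls, 4 of the 17 members passed an adjusted p of 0.05 upward and 0 downward, against 0.329% of all probe sets upward and 0.568% downward. At an unadjusted p under 0.05 these counts were 9 and 2, against 13.4% of all probe sets in either direction. The groups did not overlap in 11 of the 17 members, against 17.5% of all probe sets: 9 members were higher (8.62% of all probe sets) and 2 lower (8.9%). These shares include many dim probe sets. At a mean log2 of at least 3, the groups did not overlap in 11 of 12 members, against 4234 of all 12208 probe sets. In the same fit, 4 of these 12 passed upward and 0 downward, against 118 and 202 of the 12208. The median log2 difference was 0.41 over the 17 members and 0.002 over all probe sets.

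The 4 calls depended on the arrays included. By limma, 6 member probe sets passed upward and 1 downward without control array 1, 1 passed upward without control array 3, and 0 passed without control array 2, mimic array 1, mimic array 2 or mimic array 3. Of all 45037 probe sets, 314 passed without control array 1, 174 without control array 3 and 0 in the last 4 fits. In each of those last 4 fits 9 members were higher and 2 lower at an unadjusted p under 0.05. Of all 45037 probe sets, 4579 to 5518 were under 0.05 in these fits, in either direction. In bulk RNA, more cells of a type and more RNA per cell cannot be told apart, which holds for every result below.

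**Figure D1:**
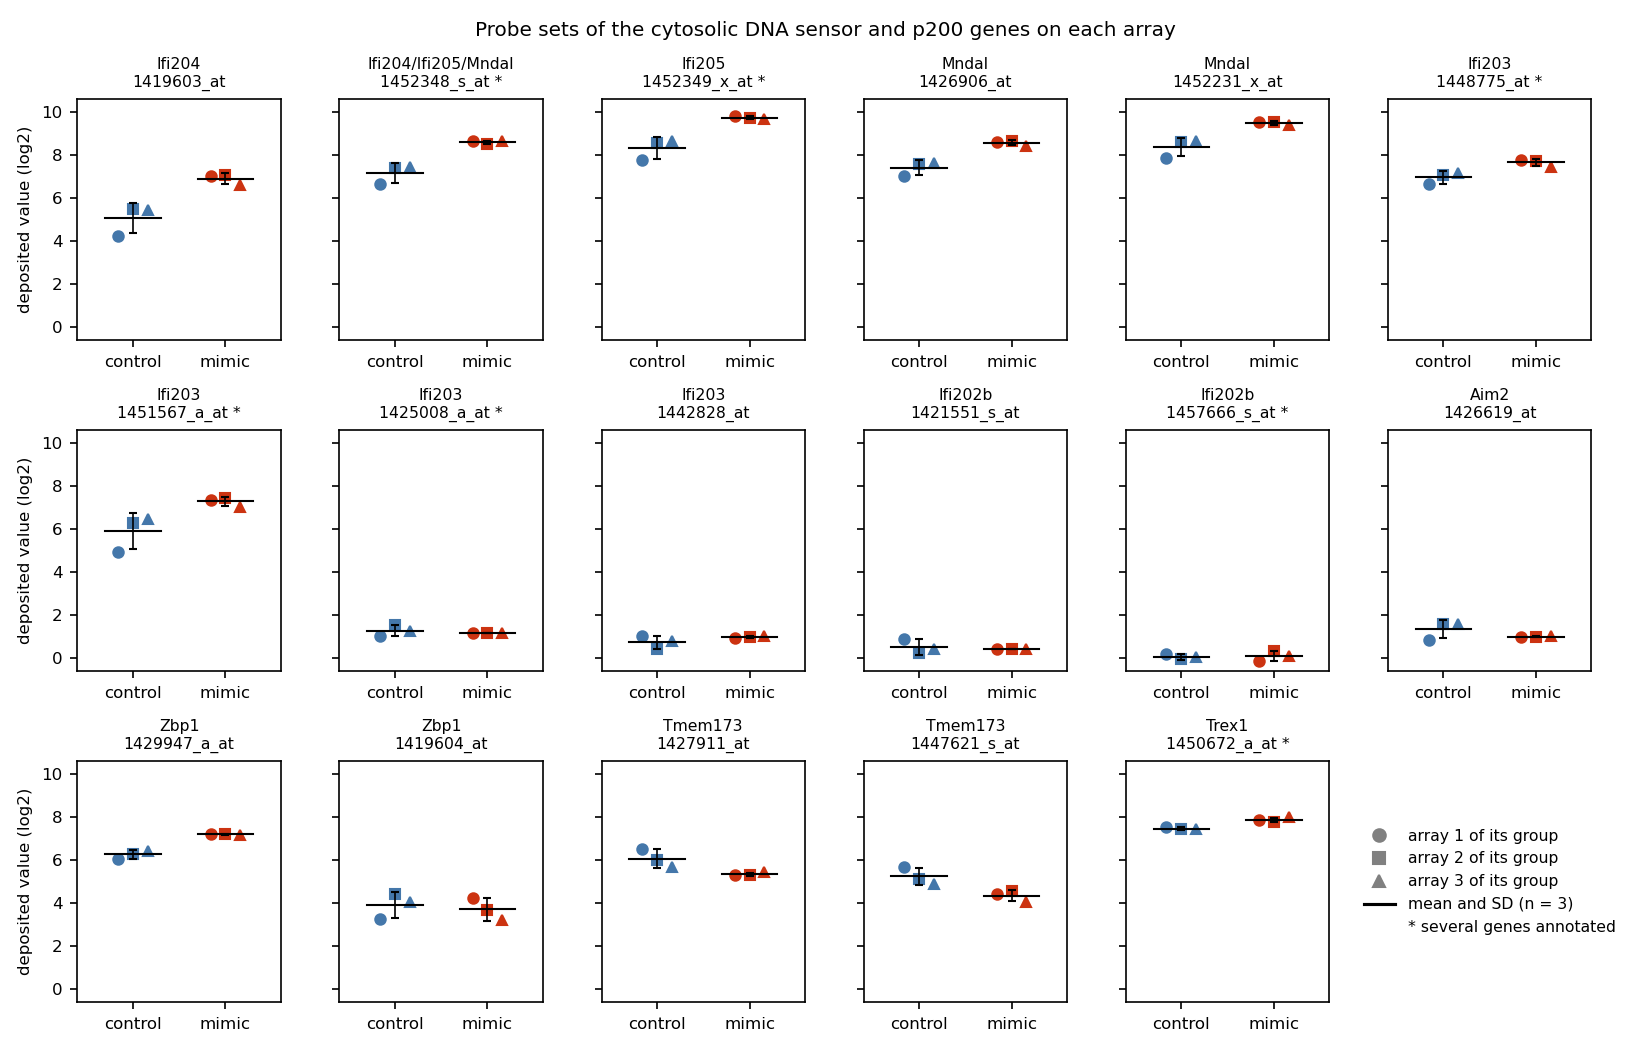
Deposited log2 value (vertical axis) of each of the 17 member probe sets on the 3 control arrays (blue) and the 3 mimic arrays (red); the symbol gives the array number, the horizontal line the mean and the bar the SD. In 7 p200 panels all mimic points lie above all control points and control array 1 is the lowest, in both Tmem173 panels the order is turned, and the 5 panels of Aim2, Ifi202b and 2 of the Ifi203 sets stay below 2.

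Ifi204 encodes p204, a DNA-binding p200 protein of mouse linked to STING signalling and regarded as the counterpart of human IFI16. Its own probe set stood at 4.25, 5.49 and 5.47 on control arrays 1, 2 and 3, and at 7.04, 7.06 and 6.61 on mimic arrays 1, 2 and 3. The groups did not overlap, and control array 1 lay more than 1 log2 unit below the other controls. The log2 difference was 1.83 ± 0.33 (SE, n = 3 per group), a 3.56-fold difference. It missed the threshold over all probe sets (adjusted p = 0.0598 by limma) and passed over the 18193 genes, each represented by 1 probe set (adjusted p = 0.0297 by limma). Without control array 1 the log2 difference was 1.42 and passed over all probe sets (adjusted p = 0.0418 by limma).

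Mndal encodes a nuclear p200 protein related to the myeloid nuclear differentiation antigen. Its first probe set read 7.03, 7.60 and 7.62 on control arrays 1, 2 and 3, and 8.61, 8.64 and 8.42 on mimic arrays 1, 2 and 3. All 3 mimic arrays were above all controls, by more than the spread within either group. The log2 difference was 1.14 ± 0.17 (SE, n = 3), which passed over all probe sets (adjusted p = 0.0373 by limma). The second Mndal probe set, whose suffix marks probes that may match other transcripts, averaged 8.37 ± 0.43 in control against 9.48 ± 0.08 in mimic arrays (SD, n = 3). Its log2 difference of 1.12 ± 0.20 was close in size to that of the first set (adjusted p = 0.0615 by limma over all probe sets, and 0.0306 over genes, where this set represents Mndal).

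Ifi205 encodes p205, a p200 protein of mouse macrophages, and was measured only through probe sets that it shares with neighbours. The set annotated to Ifi211 and Ifi205 read 7.75, 8.57 and 8.65 on control arrays 1, 2 and 3, and 9.80, 9.71 and 9.68 on mimic arrays 1, 2 and 3. The mimic arrays were within 0.12 of each other and the control arrays spanned 0.90, with control array 1 lowest. The log2 difference was 1.41 ± 0.23 (adjusted p = 0.0463 by limma over all probe sets). The set annotated to Mndal, Ifi211, Ifi205 and Ifi204 together read 6.64, 7.38 and 7.45 on control arrays 1, 2 and 3, and 8.63, 8.51 and 8.64 on mimic arrays 1, 2 and 3. Again no mimic value fell in the control range, and the log2 difference was 1.43 ± 0.21 (adjusted p = 0.0359 by limma). How much of these 2 signals belongs to each gene cannot be told from the probe sets.

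Ifi203 had 4 probe sets, which split by brightness. The bright sets are annotated to Ifi203, its pseudogene and unnamed loci. One of them read 6.63, 7.09 and 7.18 on control arrays 1, 2 and 3, and 7.77, 7.73 and 7.46 on mimic arrays 1, 2 and 3. The groups did not overlap, and the log2 difference of 0.69 ± 0.16 missed the threshold (adjusted p = 0.127 by limma). The other bright set had a control array 1 at 4.96, far below 6.30 and 6.45 on control arrays 2 and 3, against 7.34, 7.45 and 7.05 with the mimic. Its log2 difference was 1.38 ± 0.37 (adjusted p = 0.161) and was 0.90 without control array 1 (adjusted p = 0.0768 by limma). The dim sets, one annotated also to the pseudogene and one that names Ifi203 alone, stayed between 0.44 and 1.57 on all 6 arrays, with log2 differences of -0.10 ± 0.13 and 0.25 ± 0.15. Their 95% intervals were -0.42 to 0.21 and -0.10 to 0.60.

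Ifi202b encodes p202, a p200 protein without a pyrin domain that opposes AIM2 in mouse. Both of its probe sets lay near the floor of the arrays, between 0.23 and 0.92 for the set naming Ifi202b alone and between -0.13 and 0.35 for the set shared with an unnamed locus. The groups overlapped in both, with log2 differences of -0.08 ± 0.17 and 0.04 ± 0.14 (95% intervals -0.48 to 0.31 and -0.29 to 0.37). Aim2, the inflammasome sensor gene, was also dim, at 0.86, 1.61 and 1.61 on control arrays 1, 2 and 3 and at 0.997, 0.985 and 1.049 on mimic arrays 1, 2 and 3. The mimic arrays lay between control array 1 and the other controls, and the log2 difference of -0.35 ± 0.20 missed the threshold (adjusted p = 0.524 by limma, 95% interval -0.82 to 0.12). Without control array 1 it was -0.60 and passed downward (adjusted p = 0.0478 by limma).

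**Figure D2:**
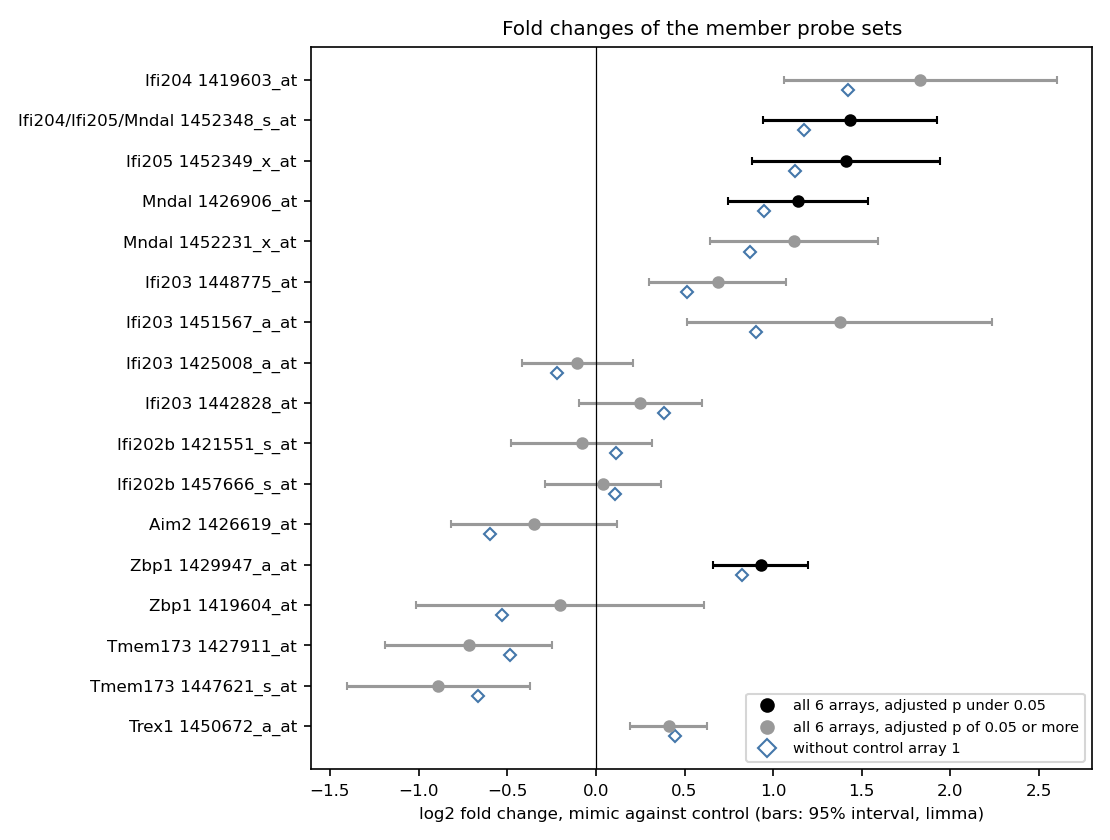
Log2 fold change of the mimic against control arrays (horizontal axis) for the 17 member probe sets (rows), as points with 95% intervals from limma, black where the adjusted p was under 0.05; open diamonds give the value without control array 1. Without that array the 7 bright p200 sets stay above 0 at smaller values, from 0.52 to 1.42, and the 2 Tmem173 sets stay below 0.

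Zbp1 encodes the Z-nucleic acid sensor also known as DAI. Its brighter probe set read 6.05, 6.29 and 6.44 on control arrays 1, 2 and 3, and 7.22, 7.20 and 7.15 on mimic arrays 1, 2 and 3. The mimic arrays differed from each other by 0.06, and the gap between groups exceeded the spread of the controls. The log2 difference was 0.93 ± 0.12 (SE, n = 3), which passed over all probe sets (adjusted p = 0.0255 by limma) and over genes (adjusted p = 0.0124 by limma). The dimmer set did not show this: it read 3.27, 4.45 and 4.06 in control and 4.26, 3.69 and 3.21 with the mimic on arrays 1, 2 and 3. These groups overlapped widely, with a log2 difference of -0.20 ± 0.35 (adjusted p = 0.863 by limma, 95% interval -1.02 to 0.61), so the 2 sets of Zbp1 disagreed in sign. With both sets averaged, the log2 difference of Zbp1 was 0.36 and the call over genes was lost (adjusted p = 0.452 by limma).

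Tmem173, which encodes the adaptor STING, was lower on the mimic arrays in both of its probe sets, whereas the 7 p200 sets with a mean log2 of at least 3 were higher. The first read 6.53, 5.99 and 5.67 on control arrays 1, 2 and 3, and 5.30, 5.31 and 5.43 on mimic arrays 1, 2 and 3. The second read 5.69, 5.15 and 4.89 in control and 4.44, 4.56 and 4.06 with the mimic. In both sets every mimic array was below every control, and control array 1 was the highest. The log2 differences were -0.72 ± 0.20 and -0.89 ± 0.22 and missed the threshold (over all probe sets, limma gave an adjusted p = 0.180 and 0.138, and over genes 0.116). When the test was limited to genes averaging at least 5 on the log2 scale, Tmem173 passed downward (adjusted p = 0.0475 by limma).

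Trex1, which encodes the main exonuclease for cytosolic DNA, was measured only by a probe set annotated to Atrip as well, a DNA damage checkpoint gene. This set read 7.52, 7.42 and 7.43 on control arrays 1, 2 and 3, and 7.84, 7.78 and 7.98 on mimic arrays 1, 2 and 3. The groups did not overlap, and here control array 1 was not the lowest control but the highest. The log2 difference was 0.41 ± 0.09, a 1.33-fold difference that did not pass over all probe sets (adjusted p = 0.111 by limma). It passed when only probe sets with a mean log2 of at least 5 were tested (adjusted p = 0.0244 by limma).

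Over genes, 7 of the 9 could be tested, since Ifi205 and Trex1 have no probe set of their own. Of the 7, 3 rose (Ifi204, Mndal and Zbp1) and 0 fell, against 1.17% of the 18193 genes upward, 1.59% downward and 2.76% in either direction by limma. At an unadjusted p under 0.05, 3 were higher and 1, Tmem173, was lower, against 3101 of all 18193 genes in either direction. Ifi203 was represented there by its dim set and had a log2 difference of 0.25 (adjusted p = 0.458). By limma, 3 member genes also passed upward without control array 1 or without control array 3, and 0 without control array 2, mimic array 1, mimic array 2 or mimic array 3.

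Of the 12 member sets with a mean log2 of at least 3, 11 had the larger SD in control, Trex1 being the exception. The SD was larger in control for 55.9% of all 12208 probe sets of that brightness. Over the 7 p200 probe sets with a mean log2 of at least 3, which measure Ifi203, Ifi204, Ifi205, Ifi211 and Mndal, the median SD was 0.45 in control against 0.12 in mimic arrays. Over all 12208 probe sets of that brightness these medians were 0.14 and 0.13. In each of the 7 sets control array 1 was the lowest control, by 0.51 to 1.42 log2 units below the mean of control arrays 2 and 3, which differed from each other by 0.15 or less. The mimic mean lay 0.52 to 1.42 above that mean of control arrays 2 and 3. In Tmem173 control array 1 was 0.70 and 0.67 above the other controls in the 2 sets, and in Trex1 it was 0.10 above. Over all probe sets of that brightness control array 1 was the lowest control in 48.5%.

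Across the 6 arrays the 7 p200 sets correlated with each other at 0.951 to 0.998, the brighter Zbp1 set correlated with them at 0.922 to 0.988, and the 2 Tmem173 sets at -0.985 to -0.859. These correlations are descriptions over 6 arrays, they hold the difference between the groups and control array 1 within them, and several of the 7 sets share sequence. Among 2276 other named genes averaging 6 or more on the log2 scale, those most like Ifi204 were Mgst2 (r = 0.997) and Ampd2 (r = 0.995), and those most like Mndal were Cxcl10 (r = 0.999) and Ampd2 (r = 0.998). Zbp1 was most like Rnf114 and Lpxn (r = 0.999 and 0.998), and Tmem173 was most like Dpysl2 and Pfkp (both r = 0.997).

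The neighbours of the members in the p200 cluster were measured through Ifi207, Ifi209 and Ifi213, and 2 of the 3 rose over genes. Ifi209, also called Pyhin1, read 6.79, 7.68 and 7.89 on control arrays 1, 2 and 3 and 8.96, 8.87 and 8.81 on mimic arrays 1, 2 and 3 (log2 difference 1.43 ± 0.26, adjusted p = 0.0311 by limma). Ifi213 averaged 5.62 ± 0.43 in control against 6.95 ± 0.18 in mimic arrays (SD, n = 3), a log2 difference of 1.32 ± 0.21 (adjusted p = 0.0226). Its other probe set, the one of largest variance, had a log2 difference of 2.05 and did not pass over genes (adjusted p = 0.0720 by limma). Ifi207 had a log2 difference of 1.24 ± 0.27 and did not pass (adjusted p = 0.0603). Over all probe sets, the fit used for the members above, the first Ifi213 set passed (adjusted p = 0.048 by limma). The Ifi209 set did not pass there (adjusted p = 0.063 by limma). The other Ifi209 set had a log2 difference of 0.96 and did not pass either (adjusted p = 0.064 by limma). In all 3 the groups did not overlap and control array 1 was the lowest, as in the 7 member p200 sets with a mean log2 of at least 3. Within the cluster, the values near 0 were those of Aim2, Ifi202b and the dim Ifi203 sets, all of which had a mean log2 under 2.

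**Figure D3:**
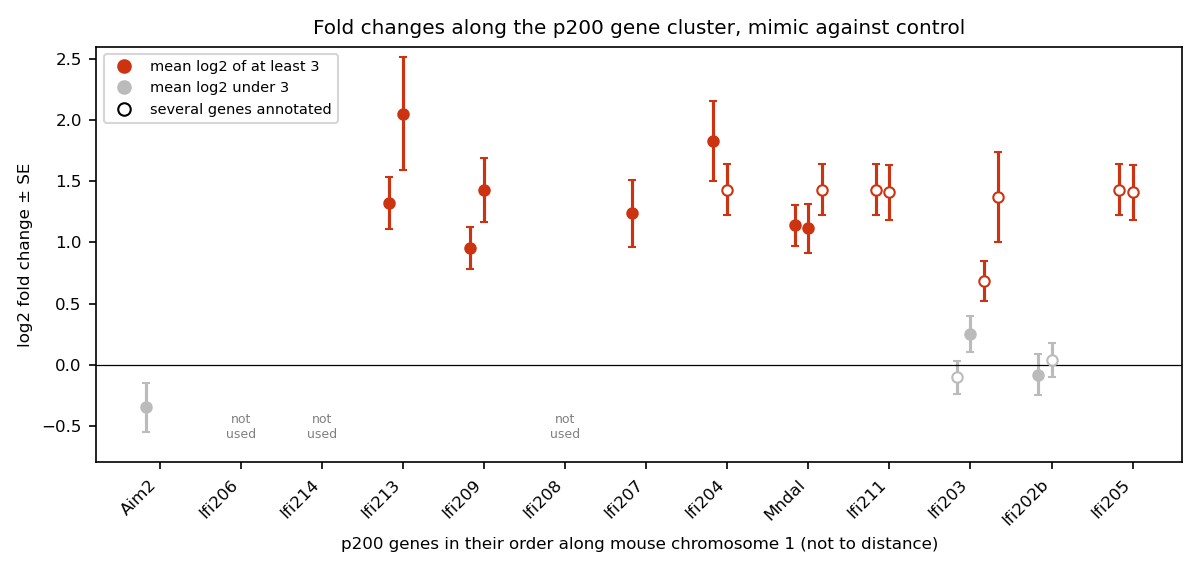
Log2 fold change ± SE (vertical axis) of each p200 probe set, placed at its gene in the order along mouse chromosome 1 (horizontal axis, not to distance); open points are sets annotated to several genes, drawn at each of them, and grey points have a mean log2 under 3. From Ifi213 to Ifi205 all coloured points lie above 0, from 0.69 to 2.05, while Aim2 at one end, Ifi202b and the dim Ifi203 sets lie near or below 0.25.

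The genes that act around these sensors did not move as a block. Of 70 genes in 8 lists, which include the 3 neighbours, 8 rose and 5 fell over genes by limma (1.17% and 1.59% of all genes). Of 15 genes of cGAS and STING signalling 1 rose, 0 fell and 14 did not pass, with a list median of -0.08 against 0.01 over all genes. The one that rose was Usp18, an interferon-induced protease that removes ISG15 and damps interferon receptor signalling, at 8.21 ± 0.32 in control against 9.32 ± 0.12 in mimic arrays (log2 difference 1.11 ± 0.16, adjusted p = 0.0180). Cgas, the enzyme upstream of STING, had a log2 difference of 0.59 ± 0.14 (adjusted p = 0.0696), Tbk1 of 0.43 ± 0.13 (adjusted p = 0.144) and Irf3 of -0.40 ± 0.12 (adjusted p = 0.131). The interferon beta gene Ifnb1 lay at the floor in both groups, at 0.45 ± 0.17 and 0.34 ± 0.24. Cgas, Tbk1, Irf3 and Ifnb1 were chosen after their values were seen.

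Among 9 genes listed with the AIM2 inflammasome 2 rose, 2 fell and 5 did not pass. The list also holds Casp4 and Nlrp3, which are not parts of the AIM2 inflammasome itself. Nlrp3 was lower without passing, with a log2 difference of -0.58 ± 0.18 (adjusted p = 0.144 by limma). The inflammatory caspase genes Casp4 and Casp1 rose, with log2 differences of 0.95 ± 0.10 (adjusted p = 0.00747 by limma) and 0.91 ± 0.15 (adjusted p = 0.0227). The cytokine genes Il1b and Il1a fell, with log2 differences of -1.10 ± 0.18 (adjusted p = 0.0231) and -0.93 ± 0.11 (adjusted p = 0.0110). The remaining cytokine gene of the list, Il18, was higher without passing, at 0.75 ± 0.17 (adjusted p = 0.0651), and Casp8 had a log2 difference of 0.05 ± 0.09. Il1a was dim, at 2.50 ± 0.16 in control against 1.56 ± 0.07 in mimic arrays (SD, n = 3). The adaptor gene Pycard, which encodes ASC, stood at 8.80 in both groups, with a log2 difference of -0.002 ± 0.10. Casp1, Il18, Casp8, Pycard and Nlrp3 were chosen after their values were seen.

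Of 5 genes of ZBP1-driven cell death 1 rose and 0 fell. Mlkl, the pore-forming executioner of necroptosis, read 4.71, 5.18 and 5.43 on control arrays 1, 2 and 3 and 6.31, 6.23 and 6.49 on mimic arrays 1, 2 and 3, a log2 difference of 1.24 ± 0.18 (adjusted p = 0.0174 by limma). Every mimic array was above every control, as for the brighter Zbp1 set. Ripk3, the kinase between ZBP1 and MLKL, chosen after its values were seen, had a log2 difference of 0.08 ± 0.16 (adjusted p = 0.850).

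Of 8 genes listed for endosomal DNA sensing 2 rose and 0 fell. Irf7, the interferon regulatory factor downstream of the endosomal receptors, had a log2 difference of 1.05 ± 0.18 (adjusted p = 0.0273 by limma). Tlr13, which recognises bacterial RNA and not DNA, had one of 0.55 ± 0.11 (adjusted p = 0.0398). The DNA receptor gene of the list, Tlr9, was dim, at 1.84 in control against 1.93 in mimic arrays (adjusted p = 0.79 by limma). Tlr9 was chosen after its values were seen. Of 11 nucleases and related enzymes 0 rose and 1 fell, the lysosomal exonuclease gene Pld3, with a log2 difference of -0.68 ± 0.13 (adjusted p = 0.0420).

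Of 6 genes of the interferon receptor and its transcription factor complex 0 rose and 2 fell. They were the receptor chain gene Ifnar1, with a log2 difference of -0.62 ± 0.10 (adjusted p = 0.0213 by limma), and the kinase gene Jak1, with -0.75 ± 0.14 (adjusted p = 0.0373). When the probe sets of each gene were averaged, both calls were lost: Ifnar1 had a log2 difference of -0.34 (adjusted p = 0.0988) and Jak1 one of -0.45 (adjusted p = 0.0868). These averages include sets near the floor. The other Ifnar1 set lay at 0.52 in control against 0.47 in mimic arrays, and a dim Jak1 set at 1.02 against 0.46. Another Jak1 probe set, at 5.98 in control against 5.94 in mimic arrays, had a log2 difference of -0.04. Of 13 nuclear and DNA repair sensors 0 passed in either direction. The largest difference there was in Hmgb2, a chromatin protein gene, at -0.47 ± 0.17 (adjusted p = 0.202), and 2 other Hmgb2 sets had values of 0.31 and 0.22. By limma, 0 of the 70 genes passed when control array 2 or either of mimic arrays 1 and 3 was left out (17 or 18 higher and 12 to 14 lower at an unadjusted p under 0.05), and 1 passed without mimic array 2. The calls of Jak1, Pld3 and Tlr13 were lost whichever of the 6 arrays was left out, with a lowest adjusted p = 0.0668, 0.0567 and 0.0511 by limma.

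**Figure D4:**
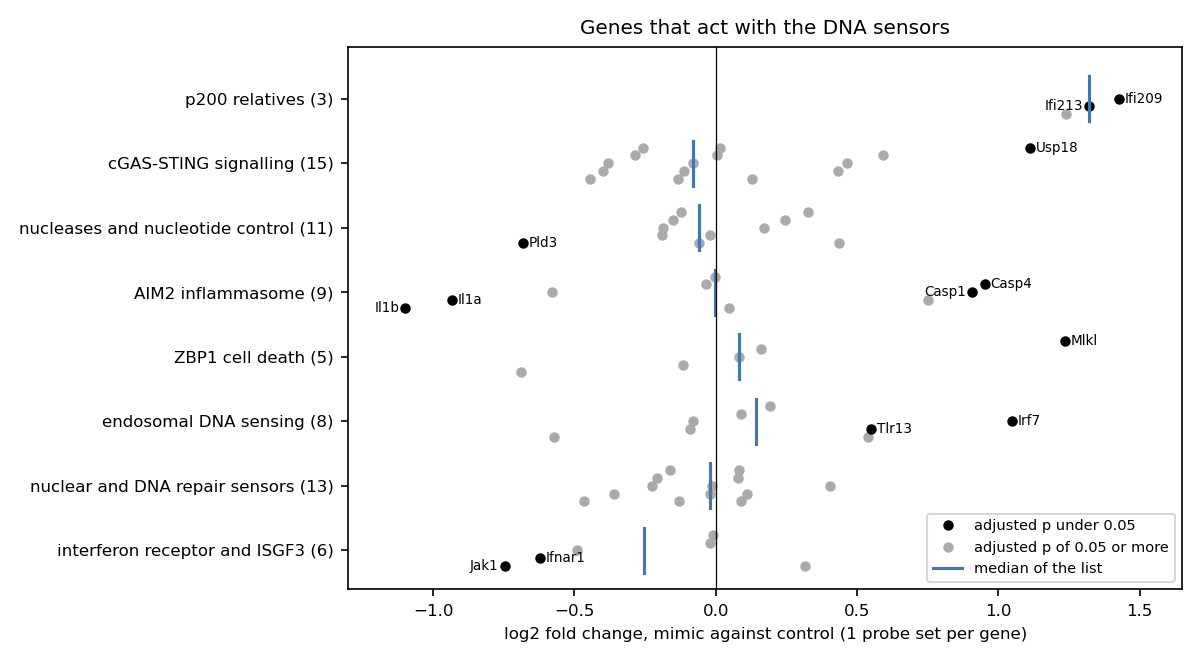
Log2 fold change of the mimic against control arrays (horizontal axis) for the 70 genes of 8 lists (rows, number measured in brackets), 1 probe set per gene; black points passed an adjusted p of 0.05, and the blue line is the median of the list. The 3 p200 relatives lie above 1.2, while the lists of STING signalling, nucleases, the inflammasome and repair sensors have medians between -0.08 and 0.

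Cell type markers also differed between the groups, and their part in the results above was not tested. The counts below are over genes by limma, where 1.17% of all genes were called higher and 1.59% lower. Of 8 dendritic cell markers 0 rose and 5 fell (Itgax, Ccr7, Ccl17, Ccl22 and H2-Ab1), and their summed linear level was 1152, 579 and 419 on control arrays 1, 2 and 3 and 118 to 132 on the mimic arrays. Control array 1 was the highest control for this list and the lowest for the 7 p200 sets with a mean log2 of at least 3. Of 7 marrow myeloid markers 0 rose and 3 fell (Itgam, Csf1r and Lyz2), with sums of 4162 to 4272 in control and 3024 to 3123 on the mimic arrays. Of 8 macrophage markers 2 rose (Fcgr1 and C1qb), with sums of 927 to 1006 in control and 1127 to 1225 with the mimic. The mean was higher with the mimic in 6 of the 8. Adgre1 and C1qa were lower without overlap of the groups and without passing. Their log2 differences were -0.38 and -0.50 (adjusted p = 0.113 and 0.0677 by limma). Of 7 neutrophil markers 1 rose (Elane), with sums of 12966 to 16105 and 17750 to 18086. Of 6 mast cell and basophil markers 2 rose (Fcer1a and Cpa3), with sums of 299 to 535 and 658 to 741. Among 5 markers of plasmacytoid dendritic cells, which make much interferon, 1 rose (Bst2, itself induced by interferon) and Siglech, Ccr9 and Klk1 had a mean log2 under 2. Of 5 B cell markers 1 fell (Ms4a1), and of 6 T and NK cell markers 1 rose (Gzmb) and 4 had a mean log2 under 2. Of 4 erythroid and megakaryocyte markers 0 passed in either direction by limma, and 2 had an unadjusted p under 0.05 (Pf4 and Gp1bb). So did 3101 of all 18193 genes.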

How the data were processed

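Total RNA was measured on 6 Affymetrix MOE430 2.0 arrays. The authors deposited 1 log2 value per probe set and array. The submitters' processing notes list RMA and affy without a version. The sources used here do not give the centring or the floor, and the log scale was taken from the values. The values were used as deposited. Symbols came from GEO's platform annotation: of 45101 probe sets, 64 are controls, 34945 have 1 symbol, 932 several and 9160 none listed. For the gene fit, symbols were updated through RefSeq (34741 matched), and each gene was represented by its probe set of highest average level.

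The mimic was tested against the control by limma 3.58.1 (R 4.3.3; lmFit, then eBayes; both sides; without covariates), with Benjamini-Hochberg adjustment over 45037 probe sets or 18193 genes, a threshold of 0.05, and 95% intervals from the same fit. The fits were tested on simulated data. Pathway lists held 86 entries, of which 70 genes were measured, and marker lists 64 entries, of which 56 were measured. Each list names up to 3 called genes with the largest change, or otherwise 1, and each member gene with a group mean of at least 4 names the 2 genes most correlated with it. The members and lists were chosen with earlier results of these data known. Sequences are from RefSeq tables for GRCm38.p6. The labels do not say whether same-numbered arrays are pairs, and the main fit did not treat them as pairs. Same-numbered arrays deviated from their group means with correlations of -0.10, 0.25 and -0.19, which cannot settle the question with 3 arrays per group.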

Additional observations from a re-analysis of the deposited data

How the results depend on the processing

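All values in this part are from limma. The log2 differences of the 11 member probe sets whose groups do not overlap kept their sign in all fits run, which their separation largely fixes in advance. Against 4 member probe sets higher, 0 passed with the replicate block (69 probe sets in all, 314 genes in all), 7 with probe sets of a mean log2 of at least 3 (835 in all), 8 with a mean of at least 5 (780 in all) and 8 with a trended robust variance (812 in all). Of those with 1 symbol 2 passed, and of those with the plain suffix 1. A further quantile normalisation gave 631 probe sets in all, and array weights gave 944 (1047 genes). With each array left out in turn, member probe sets higher numbered 0 to 6 and lower 0 to 1, all probe sets called 0 to 314, member genes higher 0 to 3 and lower 0 to 1, and all genes called 0 to 413. Tmem173 was the 1 member gene lower with a mean of at least 5. Pathway genes higher numbered 0 to 8 with an array left out, and pathway genes lower 0 to 3. Pathway genes lower were 2 with the replicate block, 8 with a trended robust variance, 8 with array weights and 3 with the probe set of largest variance. These alternatives were applied to the pathway genes after seeing the data. Dim or discordant sets changed sign. With an array left out, the Ifi202b sets ran from -0.23 to 0.11 and from -0.0782 to 0.16, a dim Ifi203 set (annotated also to the pseudogene) from -0.22 to 0.0322 and the dimmer Zbp1 set from -0.53 to 0.0549. With array weights an Ifi202b set was 0.0475. Hmgb2 was 0.0206 with its probe sets averaged and 0.22 with that of largest variance. The cause of these changes was not tested. The filters left fewer probe sets or genes to test, and leaving 1 array out left fewer arrays. The replicate block lowered the counts of members called higher, of all probe sets called and of all genes called. The labels do not say whether the numbers mark pairs. The pair correlations of -0.10, 0.25 and -0.19 cannot settle this with 3 arrays per group.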
